A study of Homo sapiens with 8 samples.

Results

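CYP2B6, CYP2C8, CYP2C18, CYP2C19, CYP2E1 and CYP2J2 are 6 drug-metabolising enzymes of the CYP2 family of cytochromes P450, and they were taken by name from the probes of an Illumina bead array run on cultured human liver cells. Of the 6 genes, 4 had a named probe in the platform annotation, with 5 probes out of 47323 in all: 2 for CYP2B6 and 1 each for CYP2C8, CYP2E1 and CYP2J2. CYP2C18 and CYP2C19 were not analysed here. Of the 4, CYP2C8, CYP2E1 and CYP2J2 were detected on every array and were tested among 11031 genes, while CYP2B6 was detected on none.

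Cytochromes P450 of the CYP2 family sit in the membrane of the endoplasmic reticulum and use a haem iron, molecular oxygen and electrons passed on by the reductase POR to oxidise drugs, solvents and fatty acids. CYP2C8 oxidises paclitaxel and amodiaquine, CYP2E1 oxidises ethanol and paracetamol, CYP2B6 oxidises bupropion and efavirenz, and CYP2J2 turns arachidonic acid into epoxides. Hepatocytes placed in culture are known to lose much of their P450 expression, and the nuclear receptors CAR and PXR are known to raise CYP2B6 and CYP2C8 in human hepatocytes.

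The samples were liver cells kept for 5 days as a monolayer (2D, 3 arrays, 250000 viable cells seeded), in a microporous polycarbonate scaffold standing in a well (static 3D, 3 arrays, 1000000 seeded), or in the same scaffold inside a bioreactor perfused by a peristaltic pump (perfused 3D, 2 arrays, 1000000 seeded). No genotype, drug or inducer is given for any group, so format, flow and seeded number are what separates them, and 2D against scaffold changes format and seeded number together. The labels name the cells as the hepatoma line HepG2, whereas the design text speaks of hepatocytes from 3 donors and of 3 perfused cultures, of which 2 arrays are analysed here, and no label ties an array to a donor. Nothing in the labels says that replicates came from separate cultures, so p-values measure the spread between these arrays only. Replicate numbers here only name arrays within a group, in the order of deposit, and link no arrays across groups.

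Arrays differed in ways the groups do not explain. Of 6 listed fetal liver or hepatoma genes, DLK1, GPC3 and IGF2BP1 were not detected on any of the 8 arrays, AFP (8.87 to 10.25 on the log2 scale) and SPINK1 (10.09 to 11.53) were detected on all 8, and IGF2BP3 was detected on 2, namely 2D replicate 1 and static 3D replicate 1. ALB, the albumin gene, lay between 15.6 and 15.8 (log2) on all of them. Static 3D replicates 1 and 2 and perfused 3D replicate 1 had an identical 15.69, as quantile normalisation gives equal ranks the same value. Near-equal ALB levels therefore do not show equal albumin RNA. On 2D replicate 1 and static 3D replicate 1, 7 and 4 of the 13 measured macrophage markers were detected, with C1QA, C1QB, MARCO, TYROBP and VSIG4 undetected on both, against 12 or 13 on each other array. The mean log2 level of the macrophage list was 7.12 and 7.11 on those arrays and 9.33 to 10.66 elsewhere, and that of the dividing cell list was 9.65 and 9.05 against 6.86 to 7.45. Hepatocyte markers averaged 11.9 on 2D replicate 1 and 13.1 to 14.3 on the other 7 arrays, static 3D replicate 1 included at 13.7. In such bulk RNA fewer cells of a type and less RNA per cell cannot be told apart. Static 3D replicate 1 and both perfused arrays lay on 1 chip and the other 5 arrays on the other, so 2D and perfused 3D share no chip. The differences of CYP2C8, CYP2E1 and CYP2J2 are therefore also given for the 6 arrays left when 2D replicate 1 and static 3D replicate 1 are dropped, and within chips where a chip holds both groups.

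The promoters of the 3 measured genes are shown because CYP2C8 and CYP2E1 varied widely between arrays. CYP2J2 varied about as much as the median gene (a range of 1.05 log2 units beside 1.08). Each runs 5′ to 3′ from 250 bases before to 50 bases after the annotated start (RefSeq, GRCh38.p14), and the windows are chr10:95069448-95069747 (minus strand) for CYP2C8, chr10:133527113-133527412 (plus strand) for CYP2E1 and chr1:59926724-59927023 (minus strand) for CYP2J2. Capitals mark matches to 3 motifs searched on both strands: TATAAAA, known as the TATA box, CAAAGTCC, the core of an element bound by HNF4 factors, and GGGCGGG, known as the GC box.
CYP2C8: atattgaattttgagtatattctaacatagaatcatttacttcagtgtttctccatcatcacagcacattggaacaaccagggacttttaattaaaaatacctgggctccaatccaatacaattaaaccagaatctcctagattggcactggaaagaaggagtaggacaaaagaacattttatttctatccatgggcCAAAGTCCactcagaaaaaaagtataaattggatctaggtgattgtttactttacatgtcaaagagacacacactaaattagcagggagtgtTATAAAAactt
CYP2E1: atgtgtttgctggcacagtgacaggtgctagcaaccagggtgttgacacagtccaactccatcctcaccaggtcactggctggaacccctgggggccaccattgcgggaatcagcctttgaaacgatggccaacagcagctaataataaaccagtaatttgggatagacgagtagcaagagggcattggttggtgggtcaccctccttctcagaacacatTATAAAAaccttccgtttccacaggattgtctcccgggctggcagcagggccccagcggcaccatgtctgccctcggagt
CYP2J2: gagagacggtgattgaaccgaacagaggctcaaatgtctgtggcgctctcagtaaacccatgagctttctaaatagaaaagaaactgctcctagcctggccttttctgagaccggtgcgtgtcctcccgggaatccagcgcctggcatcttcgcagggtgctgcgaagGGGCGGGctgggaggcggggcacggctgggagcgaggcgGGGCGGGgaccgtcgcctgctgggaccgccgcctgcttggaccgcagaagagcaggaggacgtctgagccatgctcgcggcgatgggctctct
The CYP2C8 window held CAAAGTCC at bases 198 to 205 and TATAAAA at bases 290 to 296. This TATAAAA lies after the annotated start, which follows base 250, and so not where a TATA box usually sits. CYP2E1 held TATAAAA at bases 221 to 227, before its annotated start, and neither of the others. CYP2J2 held GGGCGGG at bases 169 to 175 and 208 to 214 and neither of the others, and its window was 63.3% G or C, against 34% for CYP2C8 and 54.3% for CYP2E1. Of all 35116 promoters of this length in the table, 4.52% held TATAAAA, 1.20% held CAAAGTCC and 33.1% held GGGCGGG on either strand. Of the 6 genes 5 had an entry. CYP2B6 held CAAAGTCC and TATAAAA, both on the opposite strand. CYP2C19 held both on the same strand, with 92 bases from the first base of one to the first base of the other. That is the same spacing as in CYP2C8. The TATAAAA of CYP2C19 lay at bases 220 to 226, before its annotated start, unlike that of CYP2C8. These matches describe letters only and say nothing of binding.

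CYP2C8 was highest on the 2 perfused arrays, and its arrays spread most widely in 2D. Its log2 level was 7.71, 12.37 and 10.35 on 2D replicates 1 to 3, 12.38, 12.24 and 13.44 on static 3D replicates 1 to 3, and 14.22 and 14.07 on the perfused arrays. Both perfused arrays thus stood above all 6 others, while 2D and static 3D overlapped through 2D replicate 2, which lay above static 3D replicate 2. As deposited, before any correction, the signal went from 455 intensity units on 2D replicate 1 and 1602 on 2D replicate 3 to 16796 and 18662 units on the perfused arrays. The 2D replicate 1 signal was 1.63 times the median of all probes on its array, and the perfused signals were 57.8 and 60.8 times theirs.

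**Figure D1:**
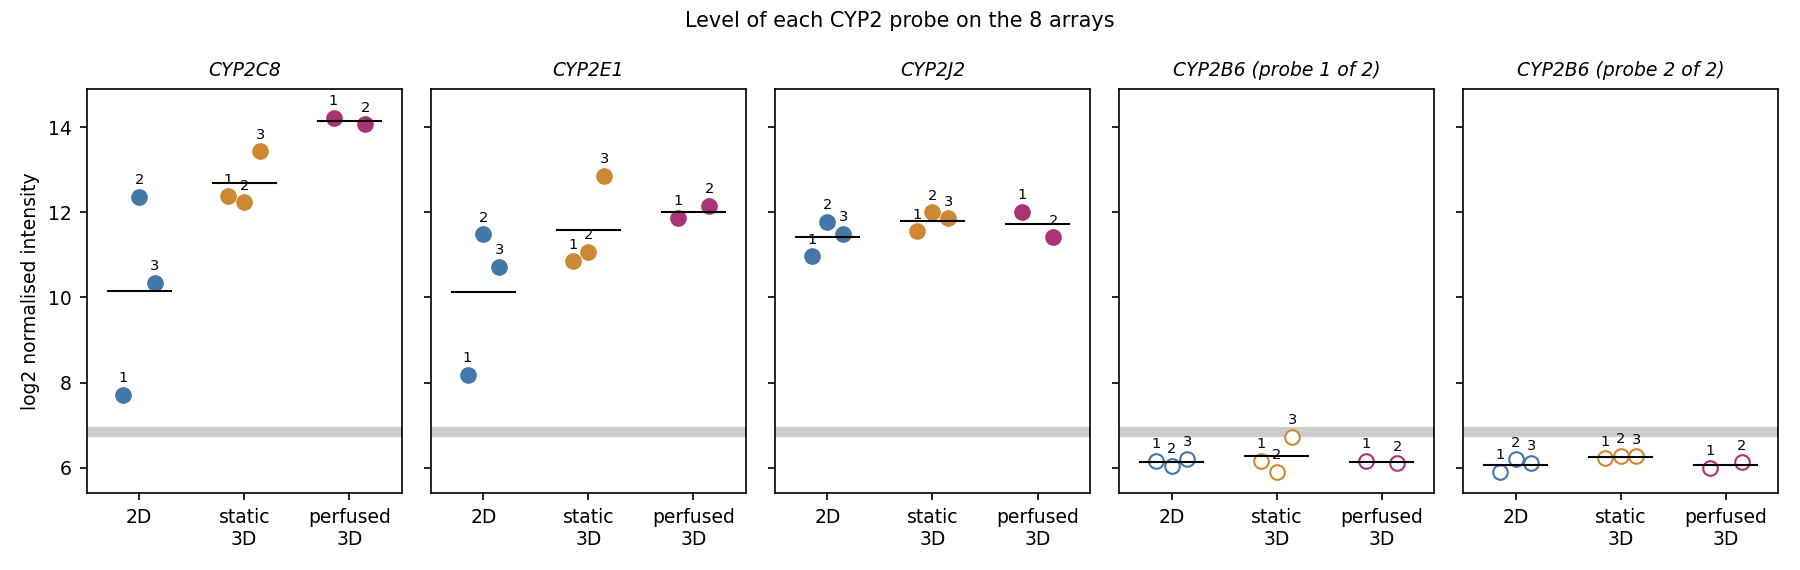
Log2 normalised intensity of each CYP2 probe (y axis) by group (x axis), 1 numbered point per array, with the group mean as a black line, filled points for detected signals and open points for undetected ones, and a grey band for the lowest detected levels (6.75 to 6.94). CYP2C8 is at 14.07 and 14.22 in perfused 3D and spans 7.71 to 12.37 in 2D, CYP2J2 stays between 10.97 and 12.02, and both CYP2B6 probes are undetected on all arrays.

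CYP2C8 averaged 10.14 ± 2.33 (SD, n = 3) in 2D. Its static mean was 12.69 ± 0.65 (SD, n = 3) and its perfused mean 14.14 ± 0.11 (SD, n = 2). Perfused 3D exceeded 2D by 4.002 on the log2 scale (SE 1.09), a 16.02-fold difference with a 95% interval of 2.84 to 90.4, and 1 of the 11031 genes had a larger difference. This difference did not pass limma's test over all genes (adjusted p = 0.964, unadjusted p = 0.0058). Static 3D exceeded 2D by 2.54 (SE 0.98, limma adjusted p = 0.940), and perfused exceeded static 3D by 1.46 (SE 1.09, adjusted p = 1.00). Because the 2D arrays enter both comparisons with 2D, those values are not independent of each other.

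The size of the CYP2C8 difference rested in part on 2D replicate 1, while its direction did not. Over the 6 arrays, perfused 3D exceeded 2D by 2.79 (SE 0.65, 95% interval 1.23 to 4.34, limma adjusted p = 0.702), static 3D exceeded 2D by 1.48 (SE 0.65) and perfused exceeded static 3D by 1.31 (SE 0.65). Without 2D replicate 1 alone static 3D minus 2D was 1.33, and without 2D replicate 2 it was 3.66. Within chip 2 static 3D exceeded 2D by 2.70 (2 against 3 arrays). Within chip 1 perfused exceeded static 3D by 1.76 (2 arrays against 1). The chip 2 value includes 2D replicate 1, and the 1 static array of chip 1 is static 3D replicate 1. Both are arrays left out of the 6, so the within-chip values rest in part on them. The perfused difference from 2D cannot be measured within a chip, so there chip and group cannot be told apart.

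CYP2E1 followed a similar but less ordered course. Its log2 level was 8.19, 11.49 and 10.72 on 2D replicates 1 to 3, 10.85, 11.07 and 12.86 on static 3D replicates 1 to 3, and 11.87 and 12.15 on the perfused arrays. The highest array was static 3D replicate 3 and the lowest was 2D replicate 1. Both perfused arrays stood above all of 2D, but 2 of the 3 static arrays lay inside the 2D range.

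CYP2E1 averaged 10.13 ± 1.73 (SD, n = 3) in 2D. Its static mean was 11.59 ± 1.10 (SD, n = 3) and its perfused mean 12.01 ± 0.20 (SD, n = 2). Perfused 3D exceeded 2D by 1.88 (SE 0.93, limma adjusted p = 0.964), a 3.68-fold difference whose 95% interval of 0.84 to 16.1 includes 1. Static 3D exceeded 2D by 1.46 (SE 0.83, adjusted p = 0.940), and perfused and static 3D differed by 0.42 (SE 0.93). Over the 6 arrays those 3 differences were 0.91 (SE 0.56), 0.86 (SE 0.56) and 0.05 (SE 0.56). Leaving out 2D replicate 1 alone took static 3D minus 2D to 0.49 and perfused minus 2D to 0.91, and leaving out static 3D replicate 3 took perfused minus static 3D to 1.05. The within-chip values were 1.83 for static 3D minus 2D and 1.16 for perfused minus static 3D. They again include 2D replicate 1 and static 3D replicate 1 respectively.

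CYP2J2, the epoxygenase, had the narrowest range of the 3 genes. Its means were 11.41 ± 0.41 (SD, n = 3) in 2D, 11.81 ± 0.23 (SD, n = 3) in static and 11.72 ± 0.43 (SD, n = 2) in perfused culture. Its log2 level was 10.97, 11.78 and 11.50 on 2D replicates 1 to 3, 11.55, 12.01 and 11.86 on static 3D replicates 1 to 3, and 12.02 and 11.42 on the perfused arrays. The perfused arrays were the highest and the second lowest of 8, and no pair of groups separated.

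Static 3D exceeded 2D by 0.39 for CYP2J2 (SE 0.28, 95% interval -0.25 to 1.03, limma adjusted p = 0.940). Perfused 3D minus 2D was 0.30 (SE 0.31, 95% interval -0.41 to 1.02) and perfused minus static 3D was -0.09 (SE 0.31, 95% interval -0.80 to 0.62). The upper ends of these intervals correspond to 2.04-, 2.02- and 1.54-fold, so differences of that size in CYP2J2 remain possible at this number of arrays. Perfused minus static 3D was 0.11 with median scaling, where the median over all genes was itself 0.12, and 0.10 with the authors' deposited values, where that median was 0.06, so it has no settled sign. The within-chip values were 0.52 for static 3D minus 2D and 0.17 for perfused minus static 3D. They too include 2D replicate 1 and static 3D replicate 1 respectively. Over the 6 arrays the 3 differences were 0.30, 0.08 and -0.22.

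**Figure D2:**
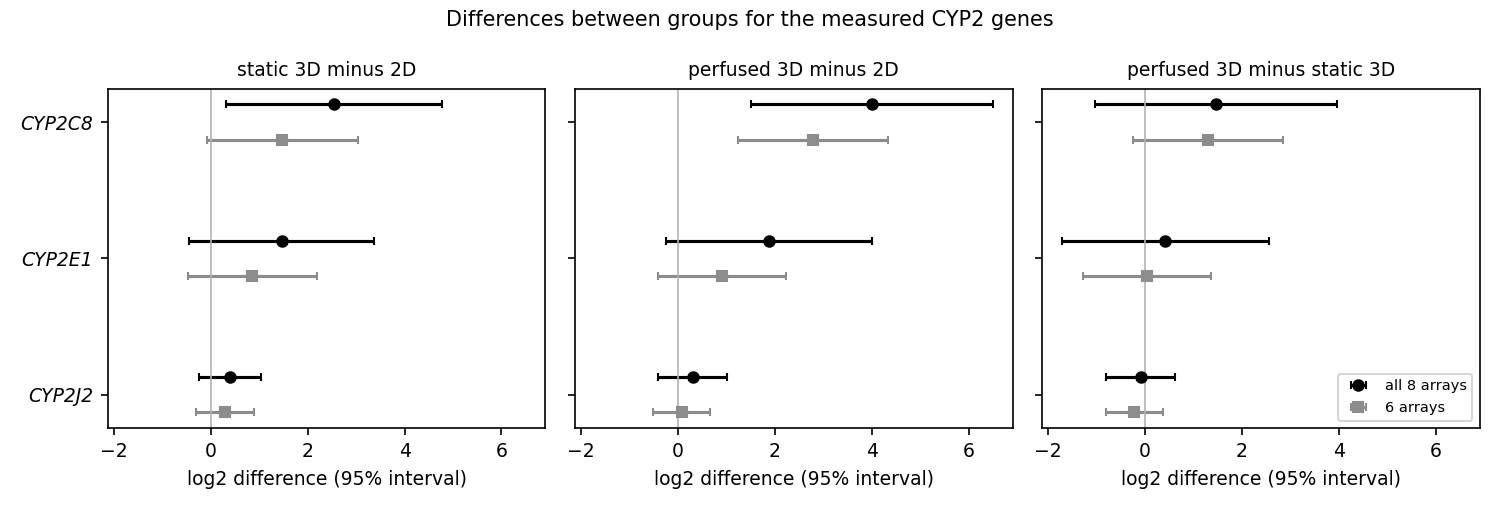
Log2 differences between groups (x axis, with 95% intervals) for CYP2C8, CYP2E1 and CYP2J2 (y axis), from all 8 arrays (black circles) and from the 6 arrays without 2D replicate 1 and static 3D replicate 1 (grey squares). CYP2C8 moves from 4.002 to 2.79 for perfused 3D minus 2D when these arrays are dropped, and every CYP2J2 interval includes 0.

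CYP2B6, the classical target of the receptor CAR, was not detected with either probe on any array. The probe ILMN_1657529 lay between 5.90 and 6.73 on the log2 scale and ILMN_2215965 between 5.90 and 6.28, below the lowest detected level of 6.75 to 6.94 on each array. The lowest detection p of the first probe was 0.092, on static 3D replicate 3, and that of the second was 0.317, on the same array. No fold is given, since both sides of each comparison lie at background. The array therefore bounds CYP2B6 from above in every format and does not show that its RNA is absent.

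None of the 3 tested genes passed limma's adjusted test in any comparison, and the background rate was 0% of genes for static 3D minus 2D and 0.00907% for each comparison with perfused 3D. At an unadjusted p under 0.05 there was 1 of 3 (CYP2C8) for static 3D minus 2D, where 4.70% of all genes reached it, and 1 of 3 (CYP2C8) for perfused 3D minus 2D, where 4.23% did. For perfused minus static 3D there were 0 of 3, with 1.88% of all genes. Non-overlap upwards was seen for 2 of 3 genes in perfused 3D against 2D, where it held for 10.8% of all genes, for 1 of 3 (CYP2C8) in perfused against static 3D (8.95%) and for 0 of 3 in static 3D against 2D (4.96%). The median log2 difference over the 3 genes was 1.46 for static 3D minus 2D, 1.88 for perfused 3D minus 2D and 0.42 for perfused minus static 3D, beside medians over all genes of 0.001, 0.008 and 0.002. It was 0.86, 0.91 and 0.05 over the 6 arrays.

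The spread between arrays of 1 group was itself large for 2 of the genes. The residual SD within groups was 1.53 for CYP2C8 and 1.30 for CYP2E1 on the log2 scale, higher than for 98.7% and 97.8% of genes, against 0.36 for CYP2J2 and a median of 0.36 over all genes. From lowest to highest array CYP2C8 spanned 6.51, CYP2E1 4.68 and CYP2J2 1.05 log2 units. All 3 genes were lowest on 2D replicate 1, the array with the lowest hepatocyte marker mean (11.9). Static 3D replicate 3, where CYP2E1 was highest, had the highest hepatocyte marker mean (14.3). By group, hepatocyte markers ranged from 11.9 to 13.5 in 2D, 13.6 to 14.3 in static 3D and 13.8 to 14.0 in perfused 3D, with 9 of 10 higher in perfused 3D than in 2D, and their part in the CYP2 differences was not tested. Between perfused 3D and 2D the macrophage list differed upwards for 13 of 13 genes (7 of 13 over the 6 arrays) and the dividing-cell list downwards for 8 of 8 (5 of 8 over the 6 arrays), and their part was not tested either.

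**Figure D3:**
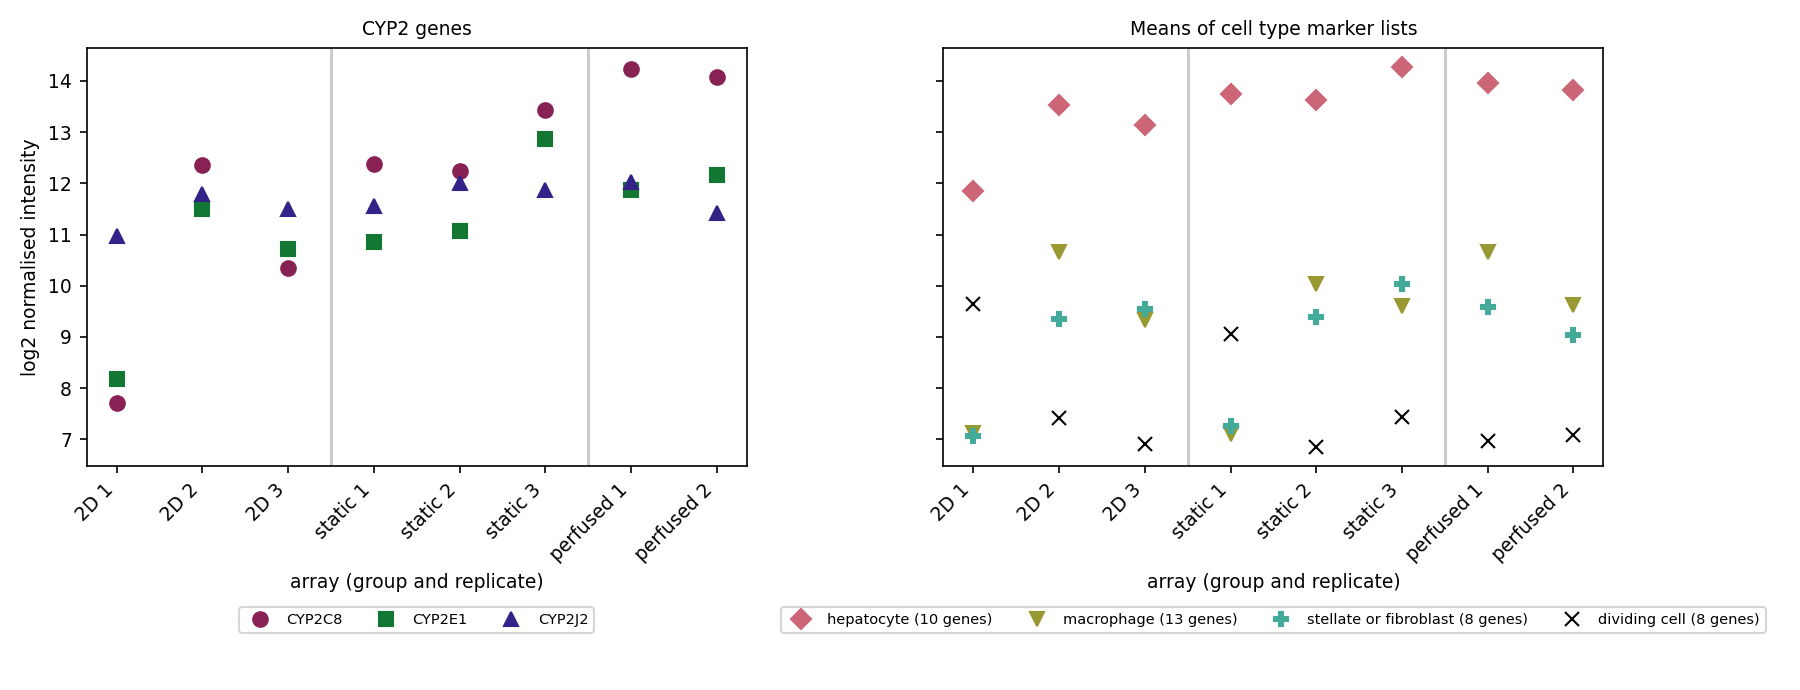
Log2 normalised intensity (y axis) on each of the 8 arrays (x axis) of CYP2C8, CYP2E1 and CYP2J2 (left) and of the mean of 4 cell type marker lists (right). On 2D replicate 1 all 3 CYP2 genes and the hepatocyte mean (11.9) are at their lowest, and the macrophage means of 2D replicate 1 and static 3D replicate 1 are 7.12 and 7.11.

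Over the 6 arrays without 2D replicate 1 and static 3D replicate 1, CYP2C8 and CYP2E1 had a Pearson r of 0.785, CYP2C8 and CYP2J2 0.269, and CYP2E1 and CYP2J2 0.107. These arrays share culture formats, chips and possibly donors, and 6 points are few, so the values describe these arrays only. Among the r values of CYP2C8 with all other genes, CYP2E1 lay at percentile 95.7 and CYP2J2 at 69.2. Among those of CYP2E1, CYP2J2 lay at percentile 60.1. Of all other genes tested, those most like CYP2C8 over the 6 arrays were MACIR (r = 0.989, detected on 7 of the 8 arrays), the tyrosine kinase gene TNK2 (0.986) and the ubiquitin-conjugating enzyme gene UBE2O (0.986, detected on 5). For CYP2E1 they were the nuclear lamina gene LMNB2 (0.994), TATDN1 (0.977, detected on 6) and ABHD17A (0.977, detected on 3), so part of the ABHD17A and UBE2O values lies at background. For CYP2J2 they were VPS37A (0.997), a subunit of an endosomal sorting complex, the activin receptor gene ACVR1B (0.993) and RAI1 (0.993). All these genes were picked as the highest r among 11031 genes over 6 points, so high values follow in part from the selection. Over all 8 arrays MACIR, TNK2 and UBE2O spanned 1.11, 0.66 and 2.52 log2 units, against 6.51 for CYP2C8.

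Of 11 other genes of the CYP2 family with a named probe, 5 were measured, and 6 (CYP2A6, CYP2A7, CYP2A13, CYP2B7P, CYP2F1 and CYP2W1) were detected on at most 1 array. Limma called 0 of the 5 in any comparison, and at an unadjusted p under 0.05 there was 1 for static 3D minus 2D, 1 for perfused 3D minus 2D and 0 for perfused minus static 3D. CYP2D6, which oxidises many antidepressants and opioids, differed by 2.60 (SE 0.85) in perfused 3D against 2D and by 1.83 (SE 0.69) over the 6 arrays, with no overlap over all 8. CYP2D7, its neighbouring pseudogene, differed by 1.51 (SE 0.73) over all arrays and by 0.75 (SE 0.42) over the 6. On 2D replicate 1 the probes used for CYP2D6 (5.61) and CYP2D7 (6.21) were undetected. Their differences over all arrays therefore include a background value. Signal from the pair cannot be told apart where a probe binds both. The vitamin D hydroxylase gene CYP2R1 differed by -0.58 (SE 0.25) in static 3D against 2D and by -0.75 (SE 0.28) over the 6 arrays. The median of the 5 was -0.17 for static 3D minus 2D (2 higher), 0.26 for perfused 3D minus 2D (4 higher) and 0.65 for perfused minus static 3D (5 higher), and over the 6 arrays it was -0.30, 0.59 and 0.44 with the same counts. Over all arrays the static 3D minus 2D median is the value of CYP2U1, detected on 1 array in 2D, 0 in static 3D and 1 in perfused 3D. Both medians with perfused 3D are values of CYP2S1, which was undetected on 2D replicate 3 and static 3D replicate 3. These medians therefore rest in part on background values.

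Of 5 listed partners that deliver electrons to P450 enzymes, 4 were measured and none was called in any comparison. POR, the reductase, lay at 9.26, 10.09 and 10.07 in 2D, at 10.09, 10.09 and 10.33 in static 3D and at 11.25 and 11.59 in perfused 3D. Both perfused arrays were above all others, and POR exceeded 2D by 1.62 there (SE 0.31, limma adjusted p = 0.736) and static 3D by 1.25 (SE 0.31, adjusted p = 1.00). These were 1.34 (SE 0.21) and 1.21 (SE 0.21) over the 6 arrays. CYB5A, the cytochrome b5 that supports several P450 reactions, exceeded 2D by 0.82 in static 3D (SE 0.24) and by 1.14 in perfused 3D (SE 0.27), without overlap in both, and CYB5R3, its reductase, by 0.36 (SE 0.18) and 0.40 (SE 0.21). The 6-array values of CYB5A were 0.80 (SE 0.29) and 1.15 (SE 0.29). CYB5B, the mitochondrial form, differed by -0.33 (SE 0.20) in static 3D and -0.28 (SE 0.23) in perfused 3D against 2D, the latter being -0.15 (SE 0.17) on the 6 arrays.

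Among 17 transcription factors and coactivators known to control liver P450 genes, 14 had a probe, 9 were measured and none was called. NR1I3, which encodes CAR, was detected on 1 array, and NR1I2 (PXR) and HNF4A were not analysed here. The median log2 difference of the 9 was 0.17 for static 3D minus 2D (8 higher), 0.48 for perfused 3D minus 2D (7 higher) and -0.11 for perfused minus static 3D (3 higher). In static 3D against 2D the smallest p-values belonged to FOXA3 at 1.42 (SE 0.44), FOXA2 at 0.58 (SE 0.22) and ONECUT1 at 0.79 (SE 0.35). Each lay higher without overlap, as did 4.96% of all genes, and on the 6 arrays they were at 1.07, 0.53 and 0.42. In perfused 3D against 2D the smallest p-values belonged to FOXA2 at 0.48 (SE 0.24), FOXA3 at 0.88 (SE 0.49) and CEBPB at 0.79 (SE 0.51), none of them called, and on the 6 arrays at 0.41, 0.97 and 0.53. In perfused against static 3D ONECUT1 lay lower at -0.72 (SE 0.39) and CEBPA higher at 0.82 (SE 0.54), each without overlap. On the 6 arrays 5 of the 9 were higher in each comparison with 2D, with medians of 0.18 and 0.09.

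P450 enzymes outside the CYP2 family gave the only gene called. Of 7 listed drug P450 genes 6 were measured, and 1, CYP3A4, passed limma's test in perfused 3D against 2D (adjusted p = 0.00337) and against static 3D (adjusted p = 0.00223). CYP3A4 lay at 9.06 and 9.53 on the perfused arrays and was undetected on the 6 others. Its fold is therefore a lower bound of at least 5.59-fold over 2D. CYP3A4 passed the detection filter through the perfused arrays alone, and its values on the 6 others lie at background. With chip as a block its adjusted p was 0.371 against 2D and 0.0915 against static 3D, and without perfused replicate 2 it was 0.0509 against 2D. All 6, CYP3A4 included, lay higher in perfused 3D than in 2D with a median of 2.43, beside 1.88 for the CYP2 genes. Over the 6 arrays 4 of 6 did, with a median of 1.08. CYP1A2, which oxidises caffeine, differed by 3.62 (SE 1.57) over all arrays, of which 2D replicate 1 did not detect it, and by 1.73 (SE 0.66) without that array, and is the 1 gene that lists of drug P450 and of pericentral genes share.

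Genes for fatty acid P450 enzymes and epoxide hydrolases, which act on the same lipids and epoxides as CYP2C8 and CYP2J2, were measured for 10 of 11. None was called, and 10 of 10 lay higher in static 3D than in 2D (median 0.46) and 10 of 10 in perfused 3D than in 2D (median 0.85). On the 6 arrays 7 and 8 of 10 did, with medians of 0.23 and 0.61. CYP4F12 differed by 1.19 (SE 0.48) and CYP4F3, which inactivates leukotriene B4, by 1.16 (SE 0.50) in perfused 3D against 2D. Leaving out 2D replicate 1 took these to 0.71 (SE 0.34) and 0.70 (SE 0.39). CYP4A22 was detected on the perfused arrays alone and was at least 1.15-fold higher there than in 2D. It passed the detection filter through those arrays alone, so the filter favoured its direction in the perfused count. Its static 3D minus 2D value of 0.06 compares background with background. EPHX2, the soluble hydrolase that opens the epoxides made by CYP2J2, differed by 0.97 (SE 0.56) in static 3D and 1.28 (SE 0.63) in perfused 3D against 2D, values that went to 0.36 (SE 0.43) and 0.67 (SE 0.47) when 2D replicate 1 was left out.

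The measured genes that, like CYP2E1, are known to be highest around the central vein of the liver lobule did not all share one direction. Of 13 listed, 6 were measured and none was called. Their medians were -0.07 for static 3D minus 2D (3 of 6 higher), 0.09 for perfused 3D minus 2D (4 of 6) and 0.10 for perfused minus static 3D (5 of 6). AXIN2, a middle value in each median, was detected on 0 arrays in 2D, 1 in static 3D and 1 in perfused 3D. The medians therefore rest in part on background values. GLUL, glutamine synthetase, was detected on 2 of 3 arrays in 2D, 0 of 3 in static 3D and 2 of 2 in perfused 3D, and was at least 1.29-fold higher in perfused than in static 3D. OAT, which breaks down ornithine, differed by -0.58 (SE 0.31) in static 3D against 2D, without overlap, and by -0.27 (SE 0.25) without 2D replicate 1. TBX3, a transcription factor gene, differed by -0.44 (SE 0.31) in perfused against static 3D.

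**Figure D4:**
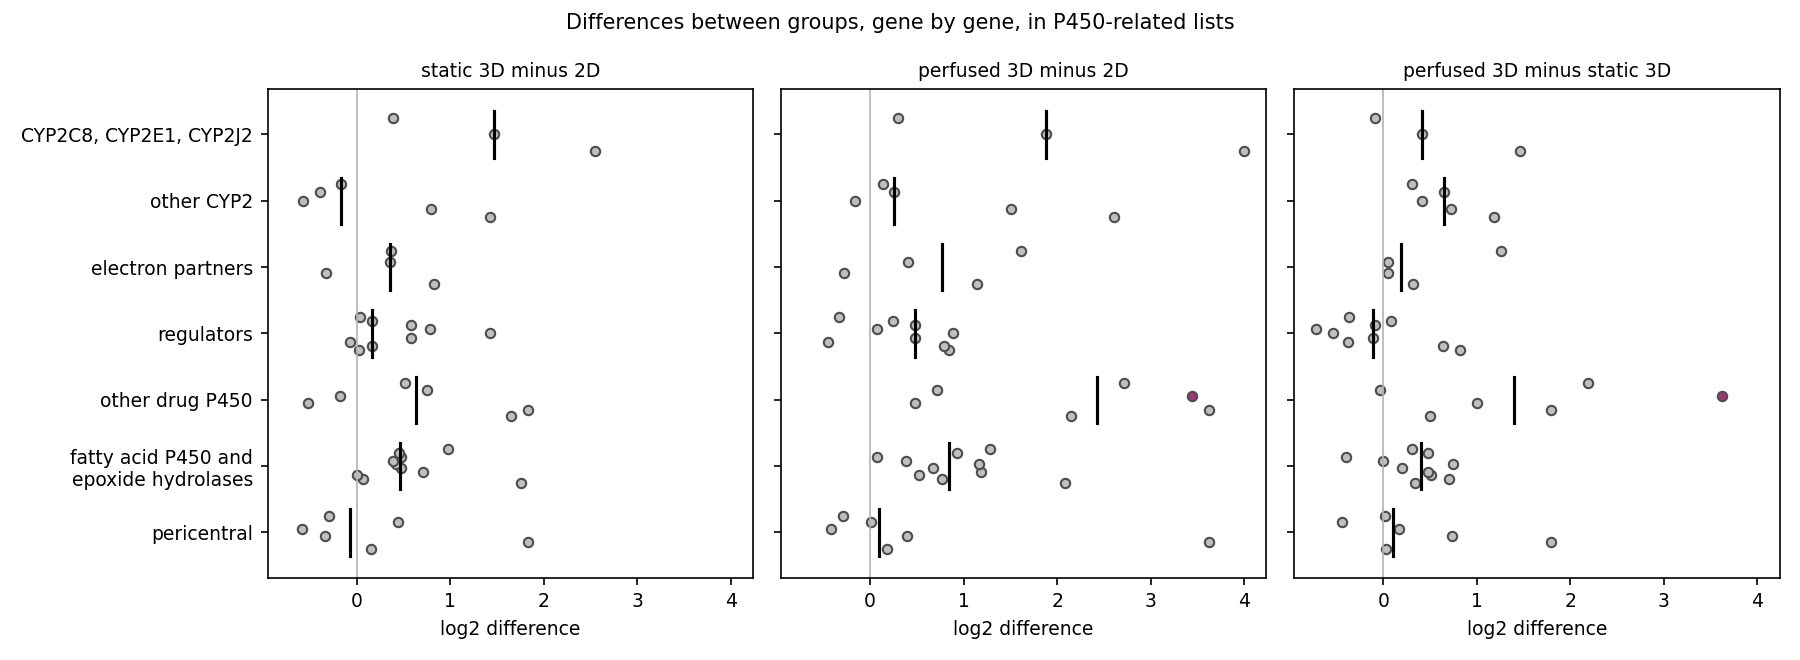
Log2 differences (x axis) of the measured CYP2 genes and of 6 P450-related lists (y axis), 1 point per gene, the list median as a black bar and CYP3A4, the only gene called, filled in purple. The CYP2 medians are 1.46, 1.88 and 0.42, and CYP2C8 is the rightmost point of its row in every panel.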

How the data were processed

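The members and lists were chosen with earlier results of these data known. Per the labels, total RNA was amplified, labelled with biotin, hybridised to HumanHT-12 v4 arrays and stained with streptavidin-Cy3. Per the file headers, the authors deposited a mean bead intensity and a detection p-value per probe and array, the p-value moving in steps of 1 in 770, and array medians of 279 to 386 units show intensities not yet scaled to each other. The authors also deposited a processed table on what its values show to be a log2 scale (column medians 7.46 to 7.64, the same probe order as the intensities), with normalisation and centring not stated in any source used here. It served as an alternative.

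Intensities were background-corrected by normexp from the detection p-values (offset 16) and quantile-normalised on the log2 scale (limma 3.58.1, R 4.3.3). Probes with detection p under 0.05 on at least 2 of 8 arrays were kept (18556), and the probe with the highest mean stood for a gene, giving 11031 genes. Of the 47323 probes 30113 carry 1 symbol, 8 several and 17202 none here. 1 linear model with a mean per group (lmFit, eBayes with trend) gave 3 two-sided contrasts, Benjamini-Hochberg adjusted over all genes. Intervals are 95% limits from the same model. A gene undetected in 1 group is given as "at least", with undetected arrays set to the higher of their value and the lowest detected level there. The number of arrays limits precision: the median standard error was 0.29 for static 3D minus 2D and 0.33 otherwise. Beside the members, genes were named by a rule: the called genes or up to 3 smallest p-values of each list, and the 3 genes most correlated with each member over 6 arrays. The fit was tested on simulated data. Alternatives varied the scaling, background, filter, probe choice, weights, chip block and arrays.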

Additional observations from a re-analysis of the deposited data

How the results depend on the processing

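No member was called in any comparison under any of the 21 alternatives. CYP2C8 and CYP2E1 kept their direction in all 3 comparisons under all 21, and CYP2J2 in both comparisons with 2D. Several of the 21 could not change a direction, because each measured member has 1 probe, detected on every array. Changes of detection filter, probe choice or trend return the same difference by construction. So does leaving out an array of the group outside a comparison. Only the scaling, background, weights, chip block, deposited values and left-out arrays of the compared groups could move it. For perfused 3D minus 2D, CYP2C8 ran from 2.79 to 5.11, CYP2E1 from 0.91 to 3.00 and CYP2J2 from 0.003 to 0.69, and the smallest adjusted p of any member over the alternatives was 0.284 (without 2D replicate 2). The median over the members in that comparison moved from 1.88 to 3.00 with chip as a block, which joins perfused 3D to 2D through static 3D replicate 1 alone by construction. For perfused minus static 3D, CYP2J2 turned from -0.09 to 0.11 with median scaling, 0.10 with the authors' deposited values and 0.17 with chip as a block. It ran from -0.39 to 0.21 with single arrays left out, positive without static 3D replicate 2 (0.01) or perfused 3D replicate 2. The cause of these changes of sign was not tested. Median scaling shifted the median of all genes by -0.13 for static 3D minus 2D and 0.12 for perfused minus static 3D. Over all genes 0 were called for static 3D minus 2D, and 1 over the 6 arrays; 1 was called for each comparison with perfused 3D, 2 without a detection filter, and, for perfused 3D minus 2D, 2 over the 6 arrays and 0 without perfused 3D replicate 2. Chip as a block gave 0 in each. Probes detected on all 8 arrays also gave 0 in each, but that filter removes CYP3A4 before any test. No paired analysis was possible because the labels carry no replicate numbers, and those used here name arrays only.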

Other observations

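Genes of the hepatocyte's cytokine response, a state known to lower P450 transcripts, were measured for 8 of 8 and none was called. Their median log2 difference was 0.84 for static 3D minus 2D (7 of 8 higher), 0.58 for perfused 3D minus 2D (7 of 8) and 0.26 for perfused minus static 3D (5 of 8), and over the 6 arrays 0.73, -0.02 and -0.57. SOCS3, the feedback inhibitor of cytokine signalling, differed by 0.86 (SE 0.32) in static 3D against 2D and by -0.58 (SE 0.35) in perfused against static 3D, without overlap in both. IL1RN, the interleukin-1 receptor antagonist, differed by 1.99 (SE 0.74) in perfused 3D against 2D and by 1.74 (SE 0.51) over the 6 arrays.

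CYP2S1, a P450 expressed mainly outside the liver, is described here after its values were seen. Its log2 level was 8.94, 9.10 and 6.78 on 2D replicates 1 to 3, 9.001, 8.67 and 5.97 on static 3D replicates 1 to 3, and 8.91 and 8.15 on the perfused arrays. It was undetected on 2D replicate 3 and static 3D replicate 3 and detected on both perfused arrays. Its wide range therefore ran within 2D and within static 3D, where the low ends lie at background. A second CYP2S1 probe was not detected on any array.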
